A study of Mus musculus with 37 samples.

Results

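The sites described here were open on the paternal genome of the mouse zygote and were listed on the maternal genome at neither of the pronuclear stages measured. They are the autosomal DNase I hypersensitive sites (DHSs) of paternal pronuclei at stage PN3 that overlapped a paternal PN5 site by at least 1 bp and overlapped no maternal site of PN3 or PN5. By this rule 195 of 3606 autosomal paternal PN3 sites (5.41%) were paternal-only at both stages, of 24685 merged regions in all 11 lists of the series. The sites were chosen by their presence or absence in the 4 measured pronuclear lists, so that pattern is not a result. Their overlap with the oocyte, sperm and embryo lists, their annotation class and their response to knockdown were not used in the choice.

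A DHS is a stretch of DNA that DNase I cuts readily because nucleosomes are displaced there, as at active promoters and enhancers. After fertilization the maternal and paternal genomes lie in separate pronuclei within the zygote until the first division. The paternal genome arrives packed by protamines and is repackaged with maternal histones, whereas the maternal genome carries its histones over from the oocyte. PN3 and PN5 are a middle and a late stage of pronuclear growth.

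DNase-seq for small inputs was applied to 32 of the 37 samples of the series, with 2 samples per group. Paternal and maternal pronuclei labelled BDF1, a hybrid mouse strain, were taken at 7.5 h (PN3, 150 and 140 pronuclei per sample of each parent) and at 12 h after fertilization (PN5, 170 pronuclei per sample). The lists set beside them came from in vitro fertilized embryos of the 1-cell (12 h), 2-cell (30 h), 4-cell (46 h), 8-cell (60 h) and morula (78 h) stages. These embryos are labelled BDF1 oocyte by JF1 sperm, while the protocol names BDF1 sperm for the 1-cell stage, where DNase I was also used less diluted. Oocytes came from 14-day-old BDF1 females and sperm from BDF1 males. Embryos from BDF1 oocytes and BDF1 sperm had been given siRNA against Nfya (2-cell) or Oct4 (8-cell), or a control siRNA (siControl). Every list pools a stage, so no list has a replicate error, and intervals below cover counting error only. Coordinates are on mm9.

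The labels of the parental genomes were checked on the Y chromosome, which maternal pronuclei lack. Paternal lists held 30 Y sites at PN3 and 26 at PN5, and maternal lists held 0 at both stages. The depth of the pronuclear, gamete and stage libraries is unknown, so absence from a list does not show that a site was closed.

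Most paternal sites that lasted from PN3 to PN5 were also maternal. Of the 1793 autosomal paternal PN3 sites that overlapped a PN5 site, 195 (10.9%) overlapped no maternal site, 1287 overlapped maternal sites of both stages, 90 overlapped maternal PN3 alone and 221 overlapped maternal PN5 alone. The mirrored rule gave 462 maternal-only sites among 3799 autosomal maternal PN3 sites (12.2%), against 5.41% on the same base for paternal-only sites. The autosomal PN5 lists differed in size, with 2602 paternal and 4609 maternal sites. A further 853 paternal PN3 sites were in none of the other 3 pronuclear lists, and 369 paternal PN5 sites likewise.

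The paternal-only sites had the usual width of the paternal PN3 list, whose median is 170 bp with quartiles of 150 and 210 bp, and their PN3 and PN5 intervals were nearly centred on each other. At PN3 their width ran from 150 bp, the smallest in the list, through a median of 170 bp to 290 bp, and at PN5 from 150 bp through 170 bp to 510 bp. Of the 195 sites, 74 were wider at PN5, 48 had the same width and 73 were narrower, with a median change of 0 bp. The centres of the PN3 and PN5 intervals lay a median of 30 bp apart and at most 220 bp, and 168 of 195 pairs met 50% reciprocal overlap. At PN3 58 sites (29.7%) had the smallest width, against 249 of 462 maternal-only sites (53.9%) and 33.4% of all autosomal paternal PN3 sites. Of the paternal-only sites 55 (28.2%) were at least 200 bp wide, against 116 maternal-only sites (25.1%) and 31.4% of all autosomal paternal PN3 sites.

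**Figure D1:**
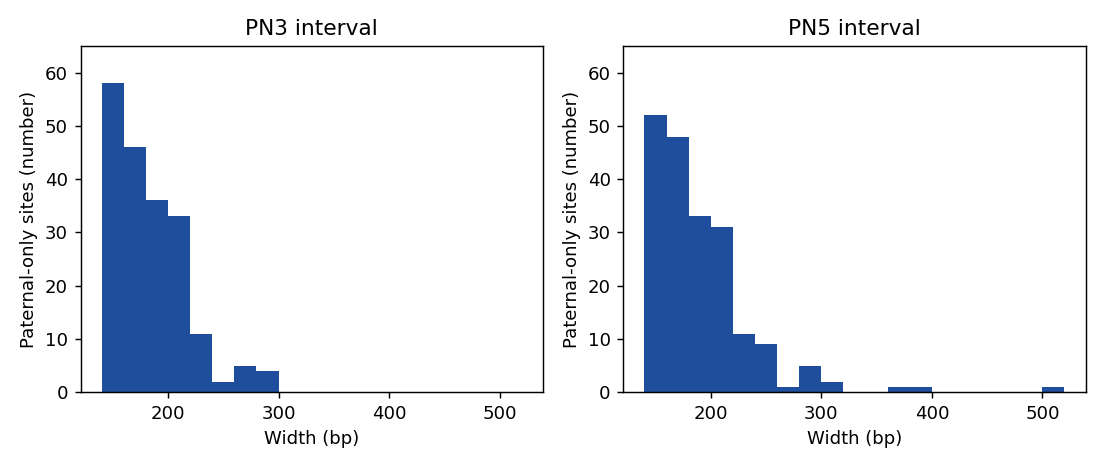
Widths in bp of the 195 paternal-only sites, in bins of 20 bp, in the PN3 list (left) and the PN5 list (right). The bars give numbers of sites. Both distributions start at 150 bp and have a median of 170 bp, and the PN5 intervals reach 510 bp.

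The widest sites by summed PN3 and PN5 width show this range. The promoter-class site at chr18:12394901-12395110 was 210 bp wide at PN3 and 510 bp at PN5, where its PN5 interval also overlapped a maternal site. The promoter-class site at chr10:75298201-75298490 was 290 bp wide at both stages. The exon-class site at chr9:115125421-115125710 was 290 and 250 bp wide at PN3 and PN5, and the promoter-class site at chr11:58136721-58136990 was 270 and 250 bp wide. These 4 were all found again in embryos. The fifth, chr8:128193581-128193730, was 150 bp wide at PN3 and 390 bp at PN5 and was in no other list.

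Most paternal-only sites lay far from any maternal site, but a small group sat at the edge of one. The gap to the nearest maternal site of either stage had a median of 130050 bp and quartiles of 44490 and 336070 bp, and 110 sites (56.4%) were more than 100000 bp away. Within 1000 bp of a maternal site there were 16 sites (8.21%), and 15 of these were within 100 bp. The nearest were each 10 bp from a maternal interval. They were the promoter-class sites at chr6:124612741-124612890, chr8:47637081-47637230, chr11:120434321-120434470 and chr18:12394901-12395110, and chr18:36508441-36508670, which was in no embryo list and has no class. Just outside the rule, 5 paternal sites were left out for an overlap of 10 bp with a maternal site, and 23 for at most 50 bp. For 11 paternal-only sites the PN5 interval itself overlapped a maternal site, since the rule compared the PN3 interval with the maternal lists. This placement was not particular to paternal-only sites. Maternal-only sites lay a median of 92600 bp from the nearest paternal site, and 48 of them (10.4%) were within 1000 bp of one.

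The sites were spread over all 19 autosomes, from 5 on chromosome 19 to 22 on chromosome 2. Chromosome 2 held 11.3% of them (exact 95% interval 7.21 to 16.6) and 7.60% of all autosomal paternal PN3 sites. The nearest other paternal-only site was a median of 2921730 bp away, and 6 sites had another within 10000 bp. These were 3 pairs. The closest, 2 intergenic intervals at chr5:113593961-113594110 and chr5:113594121-113594270, were 10 bp apart and in the 8-cell and morula lists. A pair in an intron at chr13:59155841-59155990 and chr13:59156021-59156170 was 30 bp apart. In both named pairs the 2 intervals overlapped the same PN5 site and the same embryo stage site. Each interval is counted as a member, so the 195 sites overlapped 193 PN5 intervals.

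Few paternal-only sites were listed in gametes, and the same held for paternal sites of a single stage. The oocyte list held 4 of 195 (2.05%, exact 95% interval 0.562 to 5.17), against 33 of 462 maternal-only sites (7.14%, 4.97 to 9.89), 494 of 1287 sites shared by all 4 pronuclear lists (38.4%) and 18.4% of all autosomal paternal PN3 sites. The paternal-only share was lower than the maternal-only share by 5.09 percentage points (difference -5.09, 95% Newcombe interval -8.08 to -1.39, sites as units). Among sites under 200 bp the interval included 0 (-3.64, -6.93 to 0.809). The oocyte list held 1.76% of sites of paternal PN3 alone (difference 0.293 points, -1.39 to 3.47) and 1.36% of sites of PN5 alone (0.696 points, -1.48 to 3.89). The sperm list held 0 of 195, which allows a share of up to 1.54% by the limit of 3 counts (1.87% as the exact upper bound), and only 7 autosomal sites in all. Of all autosomal paternal PN3 sites 0.0832% overlapped it.

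Of the 4 paternal-only sites in the oocyte list, 3 lay within 100 bp of a maternal pronuclear site. They were chr16:94748161-94748390, 30 bp away, chr11:120434321-120434470, 10 bp away, and chr14:63456281-63456430, 90 bp away. The remaining one, chr17:50534141-50534310, was 101090 bp from the nearest maternal site and in no embryo list.

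In embryos the paternal-only sites were rare in the early lists and common in the late ones. The 1-cell list held 4 (2.05%, exact 95% interval 0.562 to 5.17), the 2-cell list 12 (6.15%, 3.22 to 10.5), the 4-cell list 33 (16.9%, 11.9 to 22.9), the 8-cell list 93 (47.7%, 40.5 to 54.9) and the morula list 130 (66.7%, 59.6 to 73.2). Over all autosomal paternal PN3 sites the shares were 16.3%, 18.3%, 38.9%, 70.3% and 81.7%, in the same order of stages. The 1-cell list has 807 autosomal sites and the morula list 19005, so the share rises along with list size, whose part was not tested. The 1-cell embryos were collected at the same hour as PN5 pronuclei, and their list held 20.6% of all autosomal paternal PN5 sites.

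**Figure D2:**
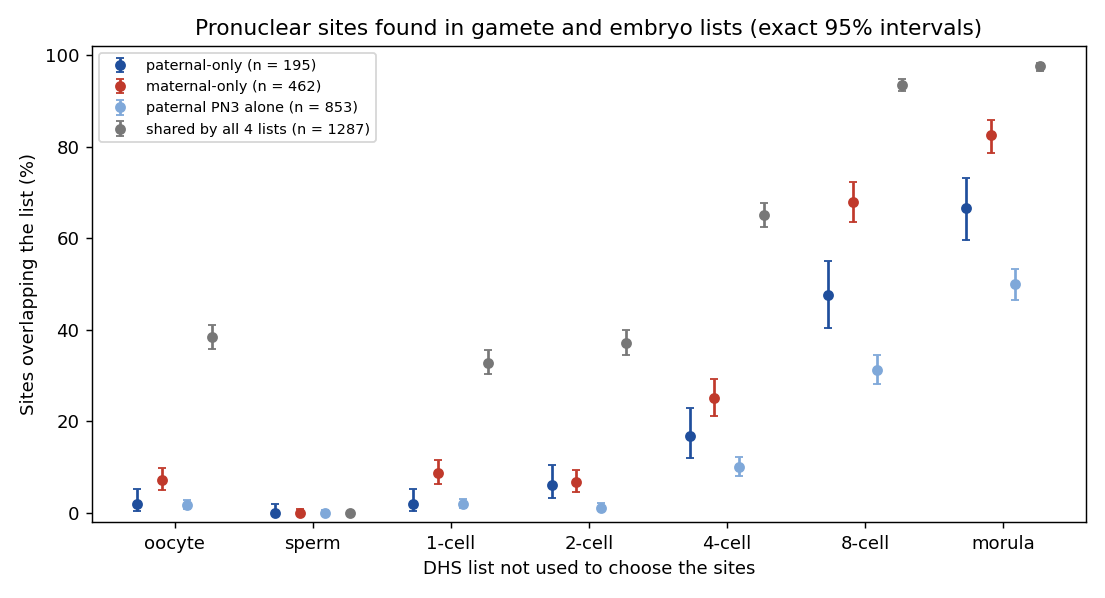
Share of sites in percent that overlap each gamete or embryo list, for paternal-only, maternal-only, paternal PN3 alone and shared sites, with exact 95% intervals as bars. Paternal-only sites lie below shared sites in every list other than sperm, and at the 8-cell stage they stand at 47.7%, against 68.0% of maternal-only sites.

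Maternal-only sites were listed more often than paternal-only ones in later embryos. The difference, paternal-only minus maternal-only, was -20.3 percentage points for the 8-cell list (47.7% and 68.0%, 95% Newcombe interval -28.3 to -12.0) and -15.8 points for the morula list (66.7% and 82.5%, -23.4 to -8.53). It was -6.61 points at the 1-cell stage (2.05% and 8.66%, -9.78 to -2.78) and -8.19 points at the 4-cell stage (16.9% and 25.1%, -14.4 to -1.21). Within width classes the 4-cell interval included 0 in both, with -15.2 to 0.0615 under 200 bp and -20.4 to 5.59 at 200 bp and over. The 1-cell interval included 0 at 200 bp and over (-15.6 to 0.383). At the 2-cell stage the shares were 6.15% and 6.71%, and the interval of the difference ran from -4.27 to 4.16. In both width classes the paternal-only share in any stage list was the lower, with 67.1% and 80.3% under 200 bp (-13.2 points, -22.2 to -4.68) and 65.5% and 93.1% at 200 bp and over (-27.6 points, -41.3 to -14.9). Over both classes any stage list held 130 of 195 paternal-only sites (66.7%), against 83.5% of maternal-only sites (-16.9 points, -24.4 to -9.65). With both groups chosen again and overlap counted only at 50% reciprocal overlap, this difference was -9.03 points (-16.8 to -1.38). That choice gave 217 paternal-only sites, since a lesser overlap with a maternal site no longer left a site out. The any-stage share was 98.3% for sites shared by all 4 pronuclear lists and 82.6% for all autosomal paternal PN3 sites.

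Paternal sites of both stages were listed later more often than paternal sites of PN3 alone. Any stage list held 130 of 195 paternal-only sites of both stages (66.7%) and 434 of 853 sites of PN3 alone (50.9%), a difference of 15.8 percentage points (95% Newcombe interval 8.14 to 22.9). Both groups had few wide sites, 28.2% and 28.5% of at least 200 bp, but they differed among the narrow ones. The smallest width, 150 bp, was that of 29.7% of the sites of both stages and 51.9% of those of PN3 alone. Their median widths were 170 and 150 bp. A split at 200 bp does not remove this difference in width, whose part was not tested. Within sites under 200 bp the difference was 18.5 points (9.39 to 26.7), and within wider sites 9.08 points with an interval that included 0 (-5.46 to 21.9). Sites of paternal PN5 alone were at 39.3% in any stage list, 27.4 points below the sites of both stages (18.8 to 35.3).

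Once a paternal-only site was listed in embryos, it was nearly always listed from then on. All 4 sites of the 1-cell list were in the 2-cell list, all 33 of the 4-cell list were in the 8-cell list, and all 93 of the 8-cell list were in the morula list (exact 95% interval 96.1 to 100). The exception was the 2-cell list, of which the 4-cell list held 9 of 12, and the remaining 3 were back at the 8-cell stage. Over all autosomal sites of a stage list, 40.3% of 1-cell sites, 78.5% of 2-cell sites, 91.1% of 4-cell sites and 76.1% of 8-cell sites were in the next list. From the 8-cell stage to the morula, maternal-only sites were kept in 98.4% of cases and shared sites in 99.4%. From the 1-cell to the 2-cell list, 25.0% of 40 maternal-only sites and 58.9% of 423 shared sites were kept. The exact 95% interval for the 4 of 4 paternal-only sites at that step ran from 39.8 to 100.

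The lists therefore sort the 195 sites into a few patterns. The largest groups were 65 sites in no embryo list, 57 in the 8-cell and morula lists and 37 in the morula list alone. A further 24 were listed from the 4-cell stage on, 6 from the 2-cell stage on, and 3 at all 5 stages. In the 2-cell, 8-cell and morula lists there were 2, and 1 was in every embryo list other than that of the 4-cell stage. Median PN3 widths ran from 150 to 230 bp over these patterns, with 190 bp for sites in no embryo list and 170 bp for sites in the morula list alone.

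**Figure D3:**
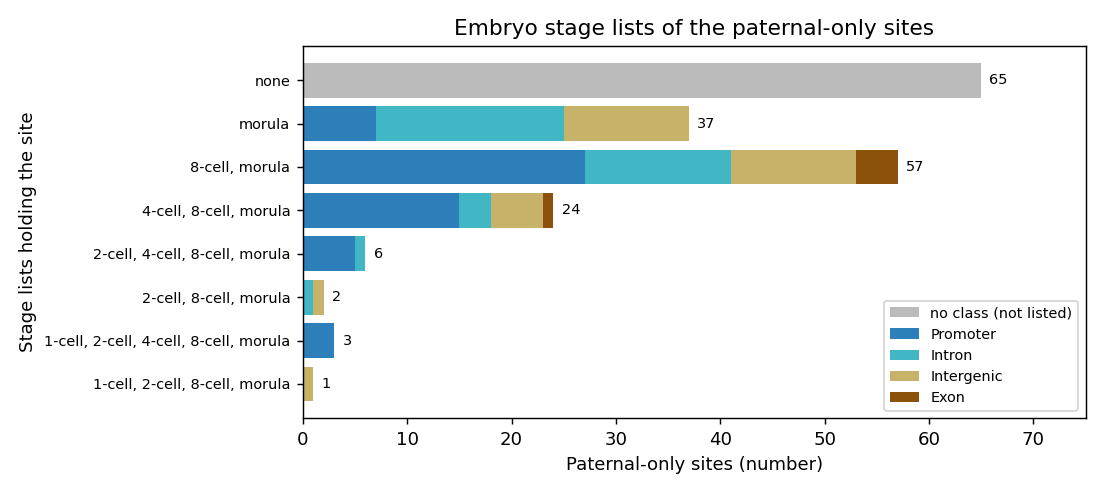
Numbers of paternal-only sites by the combination of embryo stage lists that hold them, coloured by the authors' annotation class of the overlapped stage site. The 65 sites in no list have no class, and the morula-only group holds 7 promoter sites of 37 against 15 of 24 in the group listed from the 4-cell stage on.

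The authors gave each site of the stage lists a class, so a class is known for the 130 paternal-only sites that overlap one. Promoters, where transcription starts, made up 57 (43.8%, exact 95% interval 35.2 to 52.8), introns 37 (28.5%, 20.9 to 37.0), intergenic sequence 31 (23.8%, 16.8 to 32.1) and exons 5 (3.85%, 1.26 to 8.75). Each of the 130 overlapped a single stage site, which had the same coordinates in every stage list that held it. The median width of these stage sites was 210 bp, against 170 bp for these members at PN3. As the coordinates are common to the lists, this width is not that of any 1 stage. The centres lay a median of 30 bp apart.

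This makeup was less promoter-rich than that of maternal-only sites, shared sites and paternal sites of PN3 alone, but not measurably so than that of paternal sites of PN5 alone. Of the paternal-only sites with a class 43.8% were promoters, against 320 of 386 maternal-only sites (82.9%), a difference of -39.1 percentage points (95% Newcombe interval -48.0 to -29.6). The difference was -36.3 points under 200 bp (-46.8 to -25.1) and -46.3 points at 200 bp and over (-61.4 to -28.2). Introns held 28.5% of paternal-only and 2.59% of maternal-only sites (25.9 points, 18.5 to 34.2), and intergenic sequence 23.8% and 13.2% (10.6 points, 3.13 to 19.2). Exons held 3.85% and 1.30%, with an interval that included 0 (-0.224 to 7.45). Shared sites were promoters in 89.2% of cases and all autosomal paternal PN3 sites in 79.7%.

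The comparison with paternal sites of a single stage depended on the stage. Promoters made up 60.8% of sites of PN3 alone, and the sites of both stages differed from these by -17.0 points (95% Newcombe interval -26.4 to -7.21). Introns held 16.6% and intergenic sequence 18.7% of the sites of PN3 alone. The sites of PN5 alone had a makeup that was not separated from that of the sites of both stages, with 46.2% promoters (difference -2.36 points, -13.9 to 9.31), 20.7% intronic (7.77 points, -2.38 to 17.9) and 26.9% intergenic sites (-3.05 points, -13.2 to 7.30). In the morula list as a whole 48.6% of autosomal sites were promoters, 17.8% intronic and 28.6% intergenic, beside 43.8%, 28.5% and 23.8% of the paternal-only sites in that list.

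**Figure D4:**
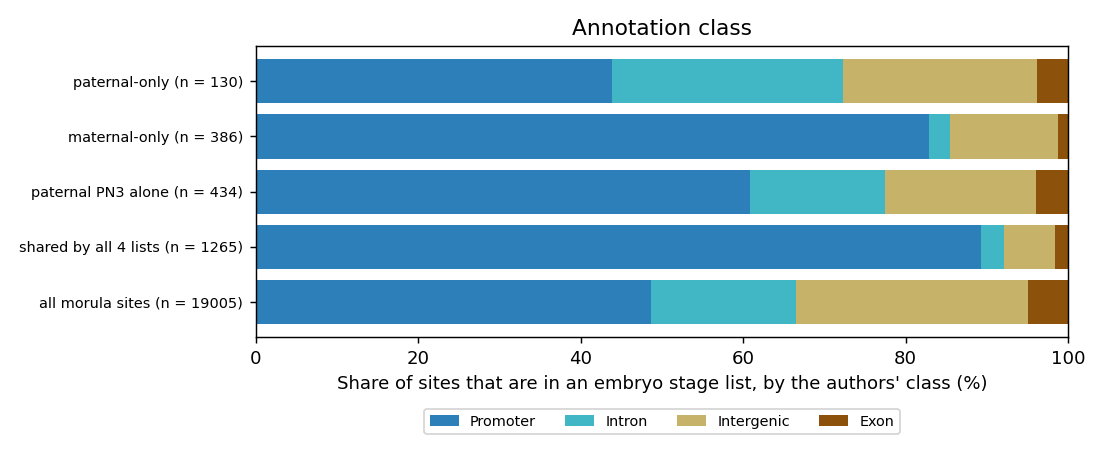
Share in percent of each annotation class among sites that overlap an embryo stage list, by group, with all autosomal morula sites at the bottom; 1 of the 1265 shared sites, which had more than 1 class, is not drawn. Promoters are 43.8% of paternal-only sites, 82.9% of maternal-only sites and 48.6% of all morula sites.

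Promoter members appeared earlier in the embryo lists than members of the other main classes. Of the 57 promoter members 23 (40.4%) were in the 4-cell list and 50 (87.7%) in the 8-cell list. Of the 37 intronic members 4 (10.8%) were in the 4-cell list and 19 (51.4%) in the 8-cell list, and of the 31 intergenic members 5 (16.1%) and 19 (61.3%). Among the 37 sites of the morula list alone 7 were promoters, 18 intronic and 12 intergenic. The share of promoters fell along the stages in the whole lists too, with 75.6% of all autosomal 4-cell sites and 48.6% of all morula sites, beside 69.7% and 43.8% of the members listed there.

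The sites of the early lists were few and can be named. The 1-cell list held the promoter-class sites at chr8:47637081-47637230, chr11:120434321-120434470 and chr14:63456281-63456430, which lay 10, 10 and 90 bp from a maternal site and were 150 bp wide at PN3. They were found at all 5 stages, and those on chromosomes 11 and 14 were in the oocyte list as well. The fourth, an intergenic site at chr17:27462021-27462250, was 146790 bp from the nearest maternal site and was in all embryo lists other than that of the 4-cell stage. First listed at the 2-cell stage were 5 promoter, 2 intronic and 1 intergenic site, among them the promoter-class site at chr7:52071181-52071390, 1690 bp from a maternal site and listed at each later stage. Of the 12 sites of the 2-cell list 5 were within 1000 bp of a maternal site.

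The 65 sites in no embryo list were mostly isolated. Their nearest stage site was a median of 130350 bp away, 6 had one within 10000 bp and 3 within 1000 bp. Their nearest maternal site was a median of 273550 bp away, against 63250 bp for promoter members, 121470 bp for intronic and 146790 bp for intergenic members. Their widths at PN3 ran from 150 to 290 bp with a median of 190 bp, beside a median of 170 bp for the 130 members in a stage list. The widest were chr4:48780681-48780970, 290 bp wide at PN3 and 150 bp at PN5, and chr4:110070261-110070530 and chr12:112402861-112403130, both 270 bp at PN3 and 170 bp at PN5. The first of these was 294290 bp from a maternal site and 488030 bp from a stage site, the other site on chromosome 4 was 1195510 and 274390 bp away, and that on chromosome 12 was 1910 and 1950 bp away.

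The next comparison asked how many of these sites the authors listed as decreased when a transcription factor was knocked down. Nfya encodes a DNA-contacting part of NF-Y, which binds CCAAT boxes, and Oct4 is a transcription factor of pluripotent cells. Of the 12 paternal-only sites in the 2-cell list 3 (25.0%, exact 95% interval 5.49 to 57.2) were in the Nfya table, beside 29.5% of all autosomal 2-cell sites. Of the 60 in the list of sites gained at the 8-cell stage 16 (26.7%, 16.1 to 39.7) were in the Oct4 table, beside 27.6% of all autosomal 8-cell gained sites. Both shares were near those of all sites. Maternal-only sites were in the tables in 5 of 31 and 26 of 205 cases (16.1% and 12.7%). By class, the Oct4 table held 8 of 27 promoter, 5 of 15 intronic, 3 of 14 intergenic and 0 of 4 exonic paternal-only sites of the gained list, beside 22.9%, 32.3%, 31.2% and 29.4% of all gained sites of these classes.

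The 3 sites of the Nfya table were all promoters. Here and below, RPM values and reads belong to the authors' stage site that the named interval overlaps, not to the paternal-only interval itself. For the first site named this was chr6:124612821-124613090. The site at chr6:124612741-124612890 had 0.314 and 0.651 RPM (reads scaled to library size) in Nfya-KD embryos, against 1.77 and 0.902 RPM in siControl embryos. The site at chr11:120434321-120434470 had 0.942 and 0.244 RPM in Nfya-KD embryos, against 1.42 and 1.18 RPM in siControl embryos, and for both sites the groups did not overlap. The site at chr7:109054261-109054470 had 0.628 and 0.244 RPM in Nfya-KD embryos and 1.77 and 0.347 RPM in siControl embryos, and there the groups overlapped. The log2 folds of siControl over Nfya-KD in the authors' deposited table were 1.30, 1.01 and 1.11. Groups did not overlap for 57.3% of the whole Nfya table. The sites on chromosomes 6 and 11 lay 10 bp from a maternal pronuclear site.

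The 16 sites of the Oct4 table comprised 8 promoters, 5 intronic and 3 intergenic sites, all in the 8-cell and morula lists alone. The table holds only sites gained at the 8-cell stage, so absence from the 4-cell list is not a result about these 16 sites. They ranged from 0 to 1.79 RPM in Oct4-KD library 1 and from 0 to 1.45 RPM in Oct4-KD library 2, against 0.243 to 3.89 RPM in siControl library 1 and 0.148 to 2.82 RPM in siControl library 2. Medians were 0.374 and 0.506 RPM in the Oct4-KD libraries and 1.70 and 0.593 RPM in the siControl libraries. The medians of the siControl libraries lay further apart than those of the Oct4-KD libraries, and their medians over the whole table were 0.973 and 0.445 RPM. In RPM both Oct4-KD libraries were below both siControl libraries at 8 of the 16 sites, beside 61.9% of the whole table. These 8 include chr5:123974161-123974390, where Oct4-KD library 2 and siControl library 2 both held 10 recovered reads.

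**Figure D5:**
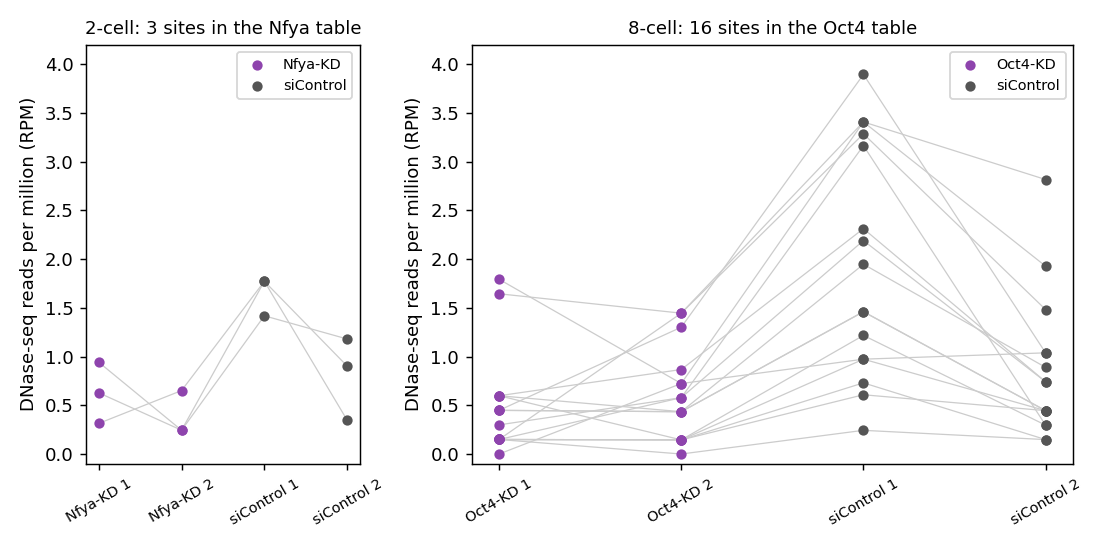
DNase-seq values in RPM per library of the authors' decreased sites that paternal-only sites overlap, 3 for Nfya (left) and 16 for Oct4 (right), with each site joined by a line. At the Oct4 sites siControl library 1 reaches 3.89 RPM and siControl library 2 reaches 2.82 RPM, and both Oct4-KD libraries stay at or under 1.79 RPM.

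The 10 sites with the largest deposited folds for Oct4 are given one by one. The intronic site at chr2:165687261-165687430 had 0.149 and 0.578 RPM in Oct4-KD embryos, against 3.16 and 0.296 RPM in siControl embryos. The promoter at chr2:150434281-150434470 had 0.149 and 0.145 RPM in Oct4-KD embryos, against 0.973 and 0.445 RPM in siControl embryos. The promoter at chr3:75760841-75761050 had 0.149 and 0.145 RPM in Oct4-KD embryos, against 0.608 and 0.445 RPM in siControl embryos. Of these 3 the intronic site was higher than both Oct4-KD libraries in siControl library 1 alone, and at both promoters the groups did not overlap. The intergenic site at chr14:121229741-121229910 had 0.299 and 0.578 RPM in Oct4-KD embryos, against 2.19 and 0.741 RPM in siControl embryos. The promoter at chr5:123974161-123974390 had 0.149 and 1.45 RPM in Oct4-KD embryos, against 3.29 and 1.48 RPM in siControl embryos. In RPM the groups of both sites were apart. At the chromosome 5 site Oct4-KD library 2 and siControl library 2 both held 10 recovered reads, so the margin came from library size alone.

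Of the remaining sites, an intronic one at chr11:88170541-88170770 had 0.149 and 0.145 RPM in Oct4-KD embryos, against 0.730 and 0.148 RPM in siControl embryos. Another intronic site at chr5:149003121-149003310 had 0.448 and 1.30 RPM in Oct4-KD embryos, against 3.89 and 1.04 RPM in siControl embryos. At both, siControl library 2 was not above both Oct4-KD libraries. The promoter at chr11:58136721-58136990, one of the widest members, had 0 and 0.723 RPM in Oct4-KD embryos, against 0.973 and 1.04 RPM in siControl embryos. The promoter at chr12:71448281-71448470 had 0.598 and 0.434 RPM in Oct4-KD embryos, against 1.95 and 0.889 RPM in siControl embryos. Here the groups did not overlap. The intronic site at chr2:172715381-172715530 was low throughout, with 0.149 and 0 RPM in Oct4-KD embryos and 0.243 and 0.148 RPM in siControl embryos. In the authors' deposited table the log2 folds of siControl over Oct4-KD ran from 1.01 to 2.22 over the 16 sites, with a median of 1.45, beside 1.56 over the whole table.

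These values rest on few reads, and the tables hold only sites that the authors called decreased. As recovered from the RPM steps, the 16 sites had 0 to 12 reads per Oct4-KD library and 1 to 32 reads per siControl library. The 3 Nfya sites had 1 to 8 reads per Nfya-KD library and 4 to 17 reads per siControl library. There 1 read was 0.314 RPM in Nfya-KD library 1 and 0.354 RPM in siControl library 1, against 0.0813 and 0.0694 RPM in number 2. The median log2 change of Oct4-KD over siControl, on the log2(RPM + 0.1) scale, was -1.19, and it was -0.54 without siControl library 1. Within number 1 it was -1.64 (lower at 16 of 16 sites), and within number 2 it was -0.39 (lower in RPM at 13 of 16). Some of these 13 had equal reads in Oct4-KD library 2 and siControl library 2, so their RPM differed through library size alone. Those with equal reads were chr5:123974161-123974390 (10 reads), chr11:88170541-88170770 (1 read), chr10:110735641-110735790 (3 reads) and chr17:35775841-35776030 (3 reads). For the 3 Nfya sites the median log2 change of Nfya-KD over siControl was -1.11, with -1.36 and -0.42 within the numbers. It was -1.75 without Nfya-KD library 1, -0.67 without Nfya-KD library 2, -0.78 without siControl library 1 and -1.68 without siControl library 2. At an adjusted p of 0.05 edgeR's quasi-likelihood test called 0 of 286 sites of the Nfya table and 0 of 2643 sites of the Oct4 table, with 8 and 210 lower at an unadjusted p under 0.05, and limma called 0 in both, with 11 and 243. The sites had been selected as decreased, so these tests have no background of unselected sites. No conclusion is drawn from any of these calls, nor from those with a library left out. Without siControl library 2 edgeR called 131 sites of the Nfya table, 1 of them a paternal-only site, and without siControl library 1 it called 2.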

How the data were processed

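The authors deposited 1 DHS list per stage, with chromosome, start and end and, for embryo stages, a class. The submitters' processing notes name Bowtie 0.12.9 and mm9, and for the peak caller, its threshold and the definition of the classes the sources give nothing. Printed starts are 1 above the deposited ones, which were taken as 0-based. The members and comparisons were chosen with earlier results of these data known. Overlap was at least 1 bp (Python 3.11.15), checked against bedtools 2.31.1 and tested on simulated data. Shares have exact Clopper-Pearson intervals (scipy 1.17.1) and differences of shares Newcombe intervals (statsmodels 0.14.6), both at 95%. Differences from sites of paternal PN5 alone were added after seeing the data. Sites were the units and are not replicates, so no p-value was computed for shares. A member's class and its knockdown values are those of the stage site it overlaps.

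The values of decreased sites after knockdown, deposited by the authors, were read as RPM, which the file headers do not name. Of these values 100% were whole multiples of 1 read to within 0.1 reads. These steps put the libraries at 3184915 and 12295904 reads for Nfya-KD, 2821266 and 14405184 for its siControl, 6695147 and 6915034 for Oct4-KD and 8218830 and 6747362 for its siControl. The log2 fold column is deposited by the authors as siControl over knockdown. No test had been planned on these tables; edgeR 4.0.16 on recovered reads and limma 3.58.1 on log2(RPM + 0.1) in R 4.3.3 were added after seeing the data. No label says that the samples of a group came from separate animals, and the spread behind each p-value may be technical. 0 columns of per-sample values were left unmapped, and RNA values were not used here.

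Named regions followed a written rule: the 5 widest members, the 5 in the most other lists, the 3 widest in the oocyte list and the 3 widest in no other list, those in the sperm list, up to 10 per knockdown table by deposited fold, and the 3 nearest to a maternal site. The fourth oocyte-listed site, close pairs, sites tied for nearest to a maternal site and sites with equal reads were named after their values were seen. No gene or sequence is given for any site, because no mm9 genome or annotation was used.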

Additional observations from a re-analysis of the deposited data

How the results depend on the processing

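The paternal-only sites were chosen again with 50% reciprocal overlap, with a width of at least 200 bp, with no maternal site within 1000 bp, with X included, by their PN5 intervals and, as an alternative added after seeing the data, with the PN5 interval free of maternal sites too. Over 14 results, 81 of 90 values under an alternative stayed within the interval of the reported value, or within 1.5 times for the count, and 9 moved. With a width of at least 200 bp there were 55 sites of 210 bp median width, the any-stage difference from maternal-only sites was -27.6 points and the oocyte difference -9.39 points; the same values hold within that width class. With no maternal site within 1000 bp, 179 sites were left and the oocyte and 1-cell shares were both 0.559%, because 3 of the 4 sites in each of these lists sit within 100 bp of a maternal site. With 50% reciprocal overlap there were 217 sites, and the any-stage difference was -9.03 points (95% Newcombe interval -16.8 to -1.38). The cause was not tested. The promoter difference lay between -46.3 and -36.0 points under all alternatives.

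Leaving out single libraries of the stage lists was not possible, as each list stands for a whole stage. In the knockdown tables edgeR called 0 to 131 sites of the Nfya table and 0 of the Oct4 table with 1 library left out, the lone library being assumed to vary like the others. With a replicate block for the library number edgeR called 0 sites in both tables. The labels state no pairing, and deviations of same-numbered libraries correlated at 0.15 and 0.00845 across sites. Both tables hold only sites selected as decreased, so no conclusion is drawn from these edgeR counts. Unknown depth limits every statement on absence from a list.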

Other observations

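The same rule applied to the sex chromosomes gave 3 sites on X and 17 on Y. Only some paternal pronuclei carry an X, and maternal ones carry no Y, so neither set is counted among the 195 autosomal sites.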
